A study of Danio rerio with 6 samples.

Results

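Scars whose alignment recorded at least 2 separate insertions and no deletion were examined in 6 adult zebrafish. They were chosen by their recorded form and by their read counts. A form qualified when its alignment to the 720-bp GFP reference held 2 or more insertions and no deletion, and it was kept when it reached 10 or more reads in at least 1 library, a library being a barcode with 1000 or more reads. Of 1050 such forms with any read, 102 were kept, out of 4273 kept scars of every form (2.39%). Since 10 of them were kept in more than 1 fish, they gave 115 cases of a scar in a fish. They are called multi-insertion scars, and the other 4171 kept scars, which hold a deletion or a single insertion, serve as the comparison.

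The fish were injected at the 1-cell stage with an sgRNA against GFP and with either Cas9 RNA (R1, R2 and R3) or Cas9 protein (P1, P2 and P3). All 6 carried a tandem array of H2A-GFP transgenes and were about 1 year old at dissection, and no uninjected fish was analysed here. Pieces of many body structures were barcoded separately in each fish, and which structure a barcode stands for was not used here. The paper added up technical repeats of a structure, which was not done here. Some libraries of a fish can therefore be repeats of 1 structure, and counts of libraries can include them. Each fish is 1 animal, its libraries are parts of that animal, and the comparisons between injections rest on 3 fish against 3.

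Cas9 cuts both DNA strands at the site that the guide RNA matches, and end joining closes the break, often with loss of bases, gain of bases or both. The resulting scar passes to all descendants of the cell, so a scar made early can be found in many body structures. An insertion whose length is a multiple of 3 leaves the codons downstream of it in frame. Injected Cas9 protein can act at once, whereas injected Cas9 RNA has to be translated first.

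The counts are numbers of reads, with no molecular identifiers, so intervals given here cover counting error only. The 58 libraries of Cas9 RNA fish held 13027 to 3198706 reads (median 319116), and the 72 libraries of Cas9 protein fish held 2802 to 2839277 reads (median 323112). Unscarred GFP made up 26.1%, 86.1% and 44.6% of the pooled reads of fish R1 to R3, and 33.8%, 26.8% and 31.6% of those of fish P1 to P3. The paper kept only fish whose GFP was mostly scarred, by the mean over organs. The value of R2, from pooled reads, is at odds with that rule, and the reason was not examined. Fish are named here by injection and by the replicate numbers of the labels, and their match to the paper's fish was not checked. Shares below are percentages of scarred reads, which are reads with any insertion or deletion. A fish whose GFP was mostly unscarred, such as R2, therefore gives its shares from fewer reads.

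Positions of insertions are counted from the first base of the GFP reference, an insertion taking the number of the reference base that follows it. The files record positions and lengths, not the inserted bases, so scars that are equal here can differ in sequence. The multi-insertion scar with the highest mean share in each fish is given here in its recorded form, where M counts bases aligned to the reference and I counts inserted bases. These forms are shown because they held most of the reads of their kind in 5 of the 6 fish.
Fish R1: 541M1I3M5I176M
Fish R2: 534M2I10M1I176M
Fish R3: 543M1I2M8I175M
Fish P1: 543M4I8M3I169M
Fish P2: 532M2I13M3I175M
Fish P3: 539M2I3M1I178M

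All 6 forms differ, and in all 6 the insertions lie within 13 bases of each other. In fish R3 the leading scar placed 1 bp at 544 and 8 bp at 546, only 2 reference bases apart. In fish P1 it placed 4 bp at 544 and 3 bp at 552. The inserted lengths of the leading scar sum to a multiple of 3 in R1, R2, R3 and P3, and do not in fish P1 and P2.

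Of the 102 multi-insertion scars, 99 had 2 insertions and 3 had 3 insertions. The 3 with 3 insertions were all kept in fish P1 alone, each in 1 library. They held 100 reads (1 bp at 524, at 538 and at 546), 12 reads (2 bp at 542, 2 bp at 545 and 1 bp at 552) and 10 reads (1 bp at 536, at 542 and at 546). No form with more than 3 insertions had any read.

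The 207 insertions of these scars lay between positions 524 and 582 with a median of 544, and 185 of them (89.4%) lay between 532 and 556. The base most often deleted by other scars lay between 542 and 545 in every fish, so the insertions sat around the same place. In 30 scars (29.4%) the insertions lay on both sides of that range, in 18 all lay before it, in 10 all lay after it, and in the other 44 an insertion lay inside it. Position 546 took more insertions than any other (31, 14.98%), followed by 545 (21, 10.1%), 544 (15), 542 (13) and 538 (12). An insertion at 545 or 546 was present in 52 scars (50.98%), and one in the 9 bases before that range (533 to 541) in 55 (53.9%). A first insertion at 533 to 541 joined to a second at 545 or 546 was the make-up of 25 scars (24.5%), which occurred in all 6 fish. Of the 31 insertions at 546, 25 were the last of their scar, and of the 12 at 538, 10 were the first, as the order by position favours.

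Most of the insertions were short. Of 207, 85 (41.1%) were of 1 bp, 54 (26.1%) of 2 bp and 34 (16.4%) of 3 bp, and the longest was 8 bp. Among the 99 scars with 2 insertions, 66 held an insertion of 1 bp. The longer insertion came first in 48 and second in 34, and the lengths were equal in 17. A 2-bp insertion followed by a 1-bp insertion was the most frequent pair of lengths, with 15 scars over all 6 fish. They were uneven between fish, since fish R2 kept its leading scar and 8 others of these lengths. Next were 1 bp and 1 bp (12 scars), 1 bp and 2 bp (10), 2 bp and 3 bp (8), and 3 bp and 1 bp (8). As recorded, without the inserted bases, the 15 scars with 2 bp and then 1 bp differ from each other only in where the insertions lie.

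The insertions of a pair were close together. The distance, counted as the reference bases between them, ran from 2 to 39 bases with a median of 7 and quartiles of 4 and 11. In 27 pairs (27.3%) it was 2 to 4 bases, in 39 (39.4%) 5 to 9 bases and in 17 (17.2%) 10 to 14 bases. The 70 pairs up to 10 bases apart held 93.6% of the reads of all pairs (339944 of 363330). Most of these reads came from the leading scars of fish P1 (267653 reads, 8 bases apart) and R3 (48061 reads, 2 bases apart). The percentage therefore says little about the other pairs, and the leading scar of fish P2 was 13 bases apart. The 9 pairs 30 to 39 bases apart hold 1-bp insertions at the far end of the range.

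The inserted bases of a multi-insertion scar summed to 2 to 9 bp with a median of 4. A sum of 3 bp was the most frequent, with 27 scars (26.5%), ahead of 5 bp with 19 (18.6%), 4 bp with 15 (14.7%) and 2 bp with 12 (11.8%). The 27 include the 15 scars with 2 bp and then 1 bp, many of them from fish R2. The sum was a multiple of 3 in 39 scars (38.2%), of which 27 had a sum of 3 bp. It left a remainder of 1 in 26 (25.5%) and of 2 in 37 (36.3%).

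The share of in-frame scars differed widely between fish. R1 had 7 in frame of 14 (50%), R2 had 12 of 17 (70.6%) and R3 had 5 of 16 (31.2%). The 12 of fish R2 include its leading scar and 8 scars with the same lengths at other positions. P1 had 13 of 37 (35.1%), P2 had 3 of 18 (16.7%) and P3 had 4 of 13 (30.8%). The highest value was thus in a Cas9 RNA fish and the lowest in a Cas9 protein fish, while R3, P1 and P3 lay within 5 points of each other. The mean was 50.6 ± 19.7% in RNA-injected fish and 27.5 ± 9.65% in protein-injected fish (SD, n = 3 each), a difference of 23.1 points that did not pass an exact two-sided permutation test over fish (p = 0.20, adjusted p = 0.80 over 4 comparisons). With 20 possible assignments of the fish the smallest p that this test can give is 0.10.

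Against the other scars of the same fish, no difference in the share in frame passed the test. Multi-insertion scars were in frame in 39.1 ± 18.8% and other scars in 33.6 ± 2.64% (SD, n = 6 fish), a difference of 5.44 points, higher in 3 of 6 fish (exact two-sided sign-flip test over fish, p = 0.66, adjusted p = 0.66 over 3 comparisons). The comparison turned on fish R2, and without it the difference was -0.88 points. With a limit of 100 reads the difference was 27.3 points (61.1% of multi-insertion scars, 33.8% of other scars), which rests on 1 to 15 multi-insertion scars per fish and did not pass the exact test (p = 0.0625, adjusted p = 0.14). Set against scars with a single insertion alone, multi-insertion scars were in frame more often in 6 of 6 fish. Single insertions were in frame in 24.3%, 26.3% and 24.6% in fish R1 to R3 and in 27.4%, 9.09% and 28% in fish P1 to P3. The mean difference was 15.8 points (exact two-sided sign-flip test over 6 fish, p = 0.031, the smallest it can give, adjusted p = 0.031). By fish it was 25.7, 44.3 and 6.66 points in R1 to R3 and 7.77, 7.58 and 2.77 points in P1 to P3. A single insertion can be of 1 bp, which is out of frame, whereas 2 insertions sum to at least 2 bp. The lengths open to the kinds of scar thus differ, and the test does not account for that. Between 80% and 98% of a fish's single insertions were also kept in another fish, so the 6 differences are not independent.

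Counted by reads, the frame followed the leading scar of each fish. In-frame scars held 67.5%, 95.1% and 96.5% of the multi-insertion reads of fish R1 to R3, and 5.94%, 8.78% and 90.1% of those of fish P1 to P3. The low values belonged to the fish whose leading scar was out of frame.

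In the Cas9 RNA fish 14, 17 and 16 multi-insertion scars were kept (fish R1 to R3), against 37, 18 and 13 in the Cas9 protein fish (fish P1 to P3). They were 0.848%, 3.42% and 2.69% of all kept scars of the Cas9 RNA fish, against 2.28%, 2.31% and 1.33% in the Cas9 protein fish. Fish P1 stood above the other 5 in the number kept (37) but not in the percentage. It also had the most reads (23286860, against 4211588 to 12012819 in the others). The part of read number in these counts was not tested. The means were 15.7 ± 1.53 scars in RNA-injected fish and 22.7 ± 12.7 in protein-injected fish (SD, n = 3 each), and the difference of -7 did not pass the exact permutation test (p = 0.60, adjusted p = 0.90). It rested on fish P1, without which it was 0.167. Of the 102 scars, 41 were kept only after Cas9 RNA, 57 only after Cas9 protein and 4 (3.92%) in fish of both injections. Of the 4171 other kept scars, 1539 were kept only after Cas9 RNA, 2040 only after Cas9 protein and 592 (14.2%) in fish of both injections. The difference between these shares was not tested.

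The share of scarred reads held by all multi-insertion scars together varied widely between the libraries of a fish. In fish R1 it was 0.125% in the highest library, with a median of 0.0061% and 0 in the lowest. In fish R2 it ran from 0.0379% to 0.736% with a median of 0.168%. In fish R3 it ran from 0.192% to 11.2% with a median of 2.14%, the highest median of the 6. In fish P1 it ran from 0.115% to 8.16% with a median of 0.223%. In fish P2 it ran from 0.00994% to 1.38% with a median of 0.0271%, and in fish P3 from 0.00231% to 2.05% with a median of 0.0223%. Relative to the median, the highest library stood further out in each of P1, P2 and P3 than in R1, R2 or R3. That contrast was read from the values, was not among the 4 comparisons between injections and was not tested. The fish also differed in their number of libraries (13 to 31).

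Averaged over libraries, the share was 0.0230%, 0.221% and 2.66% in fish R1 to R3, against 1.39%, 0.129% and 0.202% in fish P1 to P3. Means of 0.968 ± 1.47% in RNA-injected fish and 0.573 ± 0.708% in protein-injected fish (SD, n = 3 each) differed by 0.394 points, less than either SD (exact permutation test, p = 0.80, adjusted p = 0.90). The direction turned without fish R3, to -0.451 points. Both injections held 1 fish with a share above 1%, and each injection's other fish lay between 0.0230% and 0.221%.

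A single scar carried most of these reads in every fish but R1. The multi-insertion scar with the most reads held 22.2%, 75.2% and 93.4% of the multi-insertion reads of R1 to R3, against 91.96%, 78.6% and 89.3% of those of P1 to P3. The 6 scars together held 332348 of 363452 reads (91.4%). Without them the mean shares were 0.0178%, 0.0854% and 0.133% in fish R1 to R3, against 0.142%, 0.0558% and 0.0174% in fish P1 to P3. The remaining scars thus held at most 0.142% of the scarred reads of any fish on average.

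In fish R3, the scar with 1 bp at 544 and 8 bp at 546 had 48061 reads, with 10 or more in all 14 libraries. Its share was 0.173% in the lowest library, 1.91% at the median and 11.2% in the highest (95% Wilson interval 10.96 to 11.47%), with 4.57% and 3.76% in the next libraries. Its 14 libraries fell into 9 with 1.62% or more and 5 with 0.451% or less, the widest step between neighbouring libraries (3.59-fold). The 9 upper libraries held 93.5% of its reads. By number of reads it was 13th among all scars of the fish. It had 1 read in fish R2 and 0 reads in the other 4 fish.

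In fish P1, the scar with 4 bp at 544 and 3 bp at 552 had 267653 reads, with 10 or more in all 26 libraries. Its libraries formed a high and a low set. In the 9 libraries of the high set its share was 8.04%, 6.11%, 5.37%, 3.62%, 2.41%, 1.83%, 1.19%, 0.976% and 0.849%. In the 17 of the low set it lay between 0.0920% and 0.160%. The step between the sets was 5.31-fold, while the whole low set spanned less than that. The high set included the smallest library of the fish, with 22 reads of the scar among 2802 reads. The 9 libraries together held 96.1% of the scar's reads. The split was read from these values and carries no test, and the source of the reads in the low set was not tested. In fish P2 the same scar had 12 reads in 1 library and 7 in another, and the other 4 fish had 0 reads.

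In fish P3, the scar with 2 bp at 540 and 1 bp at 543 had reads in all 23 libraries and 10 or more in 15. Its share was 2.04% in the highest library (95% Wilson interval 1.95 to 2.14%), 0.919%, 0.654% and 0.307% in the next 3, and 0.0997% or less in the other 19, with a median of 0.00875%. The 4 libraries held 90.8% of its 7117 reads. All other 5 fish had 0 reads of it, which allows a share of up to 7.12e-05% of the reads in the least deeply sequenced of them.

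In fish P2, the scar with 2 bp at 533 and 3 bp at 546 was concentrated in 2 of 23 libraries. Its share was 1.36% in 1 library (6707 reads, 95% Wilson interval 1.32 to 1.39%) and 0.221% in another (283 reads), and 0.0116% or less in the other 21, a 19.03-fold step. It had reads in all 23 libraries, with a median share of 0.00468%. Fish P1 also kept it, with 399 reads and 10 or more in 6 of 26 libraries.

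In fish R2 the shares of the leading scar spread evenly. The scar with 2 bp at 535 and 1 bp at 545 had shares of 0.0243% to 0.268% with a median of 0.128%, and neighbouring libraries in that order differed by at most 1.56-fold. The mean was 0.136 ± 0.0853% (SD over 13 libraries). No other fish had a read of this scar.

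Fish R1 had no abundant multi-insertion scar. The scar with 1 bp at 542 and 5 bp at 545 had 219 reads, with 10 or more in 4 of 31 libraries and 0 reads in 18, and reached 0.0766% in the highest library (28 reads, 95% Wilson interval 0.0530 to 0.111%). The scar with 1 bp at 537 and 2 bp at 545 had 232 reads, of which 178 lay in 1 library (0.0849%). The scar with 1 bp at 524 and 2 bp at 537 had 69 reads and reached 0.0636%. All 3 were absent or below 10 reads in most libraries of the fish.

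Several scars next in rank in the other fish had most of their reads in 1 library. In fish R2, 2 bp at 540 and 1 bp at 546 had 96 of its 97 reads in 1 library (0.406%), and 1 bp at 524 and 2 bp at 540 had 59 of 70 reads in that same library (0.250%). In fish R3, 1 bp at 524 and 2 bp at 536 lay mainly in 2 libraries at nearly the same share, with 727 of its 1349 reads in 1 (0.288%) and 584 in the other (0.286%). Whether these 2 libraries were repeats of 1 structure was not examined. By contrast 2 bp at 533 and 3 bp at 538 (1094 reads) had reads in all 14 libraries of fish R3, up to 0.131%. In fish P1, 2 bp at 535 and 1 bp at 546 had 8872 of 10291 reads in 1 library (0.636%), and 3 bp at 539 and 3 bp at 545 had 2193 of 2492 reads in another (0.689%). In fish P2, 2 bp at 535 and 1 bp at 546 had 655 of 682 reads in 1 library (0.814%), whereas 1 bp at 524 and 1 bp at 533 (517 reads) had reads in all 23 libraries and never more than 0.0286%. In fish P3, 1 bp at 535 and 3 bp at 542 (344 reads) reached 0.0670%, and 1 bp at 537 and 1 bp at 547 had 45 of 56 reads in 1 library (0.0321%).

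Over all 115 cases, 66 (57.4%) had 10 or more reads in a single library. Such cases were common among other kept scars too, at 38.9% to 51.9% of those of a fish. Multi-insertion scars were below the other scars in fish R1 (42.9% against 48.7%) and P1 (51.4% against 51.8%). They were above them in fish R2, R3, P2 and P3 (50% to 88.2%). The difference between these shares was not tested. In 2 cases, the leading scars of fish R3 and P1, every library of the fish had 10 or more reads. By the same limit of 10 reads that kept both, multi-insertion scars were counted in fewer libraries than other scars of the same fish. They reached 10 reads in 5.76%, 13.1% and 20.1% of the libraries of fish R1 to R3 on average and in 15.2%, 13.8% and 11.04% of those of fish P1 to P3. For other scars the values were 15.6%, 23.1% and 28.4% in fish R1 to R3 and 18.2%, 20.6% and 22.2% in fish P1 to P3. The means were 13.2 ± 4.73% for multi-insertion scars and 21.3 ± 4.41% for other scars (SD, n = 6 fish), a difference of -8.19 points, lower in 6 of 6 fish (exact two-sided sign-flip test, p = 0.031, adjusted p = 0.047 over 3 comparisons). The difference was smaller with scars chosen by other read limits, and the part of abundance was not tested. Among scars that never reached 100 reads in a library the difference was -2.01 points (exact test, adjusted p = 0.14). With a limit of 100 reads it was -5.48 points (exact test, adjusted p = 0.22). Between injections, multi-insertion scars were in 12.99 ± 7.17% of libraries in RNA-injected fish and in 13.3 ± 2.10% in protein-injected fish (SD, n = 3 each), a difference of -0.34 points (exact permutation test, p = 0.90, adjusted p = 0.90).

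Most multi-insertion scars, like most other scars, were kept in a single fish. Of 102, 92 (90.2%) were kept in 1 fish, 8 in 2, 1 in 3 and 1 in 4, and 54 (52.9%) had no read in any other fish. Of the 4171 other kept scars, 3365 (80.7%) were kept in 1 fish. Within a fish the gap is wider, since a shared scar counts in each fish that keeps it. The percentage of a fish's multi-insertion scars that another fish also kept was 14.3%, 11.8% and 12.5% in fish R1 to R3 and 24.3%, 38.9% and 7.69% in fish P1 to P3. For other scars it was 33.6%, 65.6% and 60.6% in fish R1 to R3 and 38.1%, 57.5% and 39.5% in fish P1 to P3. The means were 18.2 ± 11.5% for multi-insertion scars and 49.1 ± 13.6% for other scars (SD, n = 6 fish), a difference of -30.9 points, lower in 6 of 6 fish (exact two-sided sign-flip test, p = 0.031, adjusted p = 0.047). Sharing is a property of pairs of fish, so these 6 values are not fully independent. When any read in another fish counted as sharing, the difference was -16.3 points and did not pass the exact test (adjusted p = 0.19).

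The scar kept in 4 fish had 2 bp at 535 and 1 bp at 546, with 52 and 65 reads in fish R2 and R3 and 10291 and 682 reads in fish P1 and P2. The scar kept in 3 fish had 1 bp at 546 and 1 bp at 548, with 50 and 65 reads in fish R1 and R3 and 50 in fish P3. Fish P1 and P2 kept 7 scars in common, which are 18.9% of those of P1 and 38.9% of those of P2, while no other pair of fish had more than 2. These 7 were not equally abundant in both fish. The leading scar of fish P1 had 19 reads in fish P2, against 267653 in fish P1, and the leading scar of fish P2 had 399 reads in fish P1, against 7233 in fish P2. Others were low in both, such as 1 bp at 546 and 1 bp at 582, with 166 reads in fish P1 and 78 in fish P2. For that scar, 1 bp at 524 and 1 bp at 533, and 1 bp at 524 and 1 bp at 553, both fish kept a far more abundant scar. It lacked 1 of the insertions and had 10 or more times the reads. Fish P1 also kept the most multi-insertion scars (37), and the overlap of other scars by pair of fish was not compared here.

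Each scar with 2 insertions was also set beside the scars that hold just 1 of them. In 45 of 112 cases (40.2%) both insertions were also kept alone in the same fish, in 49 only 1 of them was, and in 18 neither was. Each insertion alone had more reads than the pair in 27 of those 45 cases. In fish R2, R3, P1, P2 and P3 the leading scar had more reads than either of its insertions alone. Leading scars were chosen by their high share, which favours such an excess. In fish R2, 2 bp at 535 alone had 25 reads and 1 bp at 545 alone had 813, against 2052 reads of the pair. In fish R3, 1 bp at 544 alone had 700 reads and 8 bp at 546 alone was not kept, against 48061 reads of the pair. In fish P1, 4 bp at 544 alone had 40 reads and 3 bp at 552 alone was not kept, against 267653 of the pair. In fish P2 neither insertion of the leading scar was kept alone, and in fish P3 2 bp at 540 alone had 17 reads, against 7117 of the pair. The leading scar of fish R1 was among the 27 cases, where 1 bp at 542 alone had 12329 reads and 5 bp at 545 alone had 322, against 219 of the pair. In 108 of all 115 cases (93.9%) the same fish also kept a single insertion of the summed length, at or between their positions. Each fish kept 50 to 95 single insertions, and how often such a match arises by length and place alone was not computed. The percentage therefore has no rate to be set against. Whether 1 inserted stretch had been recorded as separate insertions was not tested.

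In 30 of 115 cases (26.1%) taking out a 1-bp insertion left another kept scar of the same fish, with 10 or more times the reads. Only the 79 cases that held a 1-bp insertion could qualify. The ratio of that scar's reads to those of the multi-insertion scar had a median of 904 and ran from 11.3 to 27783. These cases held 1.15% of all multi-insertion reads, but 38.9% of those of fish R1. These 1-bp variants were 5, 2 and 3 of the 10, 14 and 11 cases with a 1-bp insertion in fish R1 to R3. In fish P1 to P3 they were 10, 8 and 2 of 24, 10 and 10 such cases.

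Many of these cases held a 1-bp insertion at an end of the range. An insertion at 524 was present in 10 scars from 5 fish, was of 1 bp and the first in all of them, and 8 of its 13 cases had a scar without it at 10 or more times the reads. Alone, 1 bp at 524 had 9 to 57 reads in each fish and never reached 10 in a library, so among scars without a deletion it was kept only beside another insertion. An example is 1 bp at 524 and 1 bp at 533 in fish P2, with 517 reads, against 1300170 reads of 1 bp at 533 alone. The scar with 1 bp at 524 and 2 bp at 536 in fish R3 went the other way, with 1349 reads, against 39 of 2 bp at 536 alone. Insertions at 580 to 582 were present in 9 scars, all of 1 bp and all the second insertion, and all 10 of their cases had a scar without it at 10 or more times the reads. Alone, 1 bp at 582 had 264 to 1131 reads in each fish. The origin of these 1-bp insertions was not tested.

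Another multi-insertion scar with the same lengths was kept in the same fish in 76 of all 115 cases, so this was not particular to leading scars. For 31 of the cases such a scar had 10 or more times the reads. In R2, P1, P2 and P3 scars with the lengths of the leading scar were also kept at other positions, and for the leading scars of R1 and R3, by mean share, none was. In fish R1 the scar with the most reads (1 bp at 537 and 2 bp at 545) did share its lengths with 3 other kept scars. In fish P1, 4 bp at 544 and 3 bp at 550 had 1467 reads, 0.548% of those of the leading scar, and its ratio to the leading scar lay between 0.463% and 0.646% in the 8 libraries that held 10 or more reads of it. The same lengths at 541 and 552 had 465 reads (0.174%, 0.140 to 0.193% in 6 libraries), and at 544 and 547 had 453 reads (0.169%, 0.147 to 0.187% in 6 libraries). In these libraries, which are few of the 26, the ratio of each varied by less than 1.5-fold. They were picked by the limit of 10 reads of the rarer scar, so lower ratios could go uncounted. In fish R2, 2 bp at 535 and 1 bp at 542 had 105 reads, 5.12% of those of the leading scar. Another such scar of fish R2, with 2 bp at 540 and 1 bp at 546, reached 10 reads in 1 library. There it had 873% of the reads of the leading scar, against 4.73% over the whole fish. In fish P2, 2 bp at 533 and 3 bp at 545 had 54 reads, 0.747% of those of the leading scar. Their origin was not tested, and each was counted as a scar of its own.

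The limit of 10 reads cut through a continuum. Among the 115 cases, 7 had a highest count of exactly 10 reads and 18 of 10 to 12, while 8 forms stopped at 9 reads and 32 at 7 to 9. Below the limit were 1180 cases, 868 of them with a highest count of 1 read. Those below the limit held 3080 reads in all, between 0.00640% and 0.0166% of the scarred reads of a fish. In fish R3 this was 0.0137%, against a pooled share of 2.20% above the limit, but in fish R1 it was 0.00652%, against 0.0118% above the limit. The number of multi-insertion scars therefore depends on the limit, and in fish R1 their share of reads does too. The highest count was under 100 reads in 87 of 115 cases (75.7%). Most other kept scars were also under 100 reads, at 59.9% to 72.4% of those of a fish. Multi-insertion scars were so less often than other scars in fish P1 (59.5% against 72.4%). In fish R1, R2, R3, P2 and P3 they were so more often (62.5% to 94.1%). The difference between these shares was not tested.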

How the data were processed

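Genomic DNA of dissected body structures of 6 zebrafish, 3 injected with Cas9 RNA and 3 with Cas9 protein, was amplified by PCR with GFP primers carrying a barcode. Reads were aligned by the authors with BWA (version 0.7.16a in the submitters' processing notes), and the deposited values are raw counts of reads per scar and barcode, 1 table per fish, with no normalization. Each scar is named by its alignment string. Of 372 barcodes, the 130 with 1000 or more reads were used as libraries, with 2802 to 3198706 reads each. A scar was kept in a fish with 10 or more reads in at least 1 library, and single shares carry 95% Wilson intervals. A share of 0 was bounded by 3 reads.

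Fish were grouped by the labels and the fish was the unit of every test. RNA-injected and protein-injected fish were compared by exact permutation over the 20 assignments (4 comparisons), and multi-insertion scars with other scars of the same fish by exact sign-flip over 64 patterns (3 comparisons), two-sided, with Benjamini-Hochberg adjustment within each family. The scars and lists were chosen with earlier results of these data known. Scars were named by a rule: the 3 with the highest mean share in each fish, those kept in the most fish (at most 8), and those next to the limit of 10 reads. The others given by name, which are the scars with 3 insertions, single insertions and scars with the lengths of a leading scar, were chosen after their values were seen. Alternatives were 100 reads or 0.1% of reads as the limit, all barcodes, removal of 1-bp variants, pooled or read-weighted values, any read as sharing, single insertions as the comparison, a replicate block and each fish left out. Scars under 100 reads and removal of the scar with the most reads in each fish were alternatives chosen after seeing the data. The steps were tested on simulated data. Python 3.11.15, NumPy 2.4.6, pandas 2.3.3 and SciPy 1.17.1 were used.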

Additional observations from a re-analysis of the deposited data

Results flagged for a closer look

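Barcodes under 1000 reads were left out of all values above. In fish R3 they nevertheless held 16 reads of multi-insertion scars. Of these, 8 reads of the scar with 1 bp at 544 and 8 bp at 546 lay in a barcode of 685 reads. They were 2.11% of its scarred reads (95% Wilson interval 1.07 to 4.11%). In the libraries of that fish the same scar had a median share of 1.91%, with a range of 0.173% to 11.2%. The small barcodes of fish R2 and P2 held 1 such read each, and those of the other 3 fish none.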

How the results depend on the processing

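The differences between injections had no p under 0.05, nor could they with 3 fish against 3. Scars kept per fish (Cas9 RNA minus Cas9 protein) lay between -11.8 and 0.167 with 1 fish left out, and turned without fish P1. Their share of scarred reads lay between -0.451 and 0.867 points with 1 fish left out and turned without fish R3. It was 0.0851 on pooled reads and 0.00685 without the scar with the most reads in each fish. The in-frame difference was 44.4 points at 100 reads, 51.4 weighted by reads and 13.1 to 32.8 with 1 fish left out, and turned to -8.33 at 0.1% of reads, where fish R1 and R2 kept none. The difference in libraries per scar was 10.6 points at 100 reads, 28.7 at 0.1% of reads, 0.213 over all barcodes and 0.996 without 1-bp variants, and -3.89 to 3.28 with 1 fish left out. The labels number the fish 1 to 3 within each injection, but the numbers mark no shared animal or batch. With that number as a replicate block the 4 differences stayed at -7 scars and 0.394, 23.1 and -0.34 points, with exact sign-flip p of 0.75, 0.75, 0.25 and 0.75, where 0.25 is the smallest that 3 pairs allow.

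Both differences from other scars kept their direction in all alternatives, but had an adjusted p under 0.05 only over all barcodes and against single insertions. Sharing between fish was -36.9 points at 100 reads, -40.2 at 0.1% of reads, -35.1 without 1-bp variants, -16.3 with any read counted and -24.7 among scars under 100 reads, none with an adjusted p under 0.05. Without 1-bp variants and under 100 reads its unadjusted exact p stayed at 0.031, the smallest possible, and the adjusted p of 0.094 came from the other comparisons of the family. Libraries per scar was -5.48 points at 100 reads, -3.22 at 0.1% of reads, -7.87 without 1-bp variants and -2.01 among scars under 100 reads, again none under 0.05. With 1 fish left out these were -38.3 to -25.7 and -9.22 to -7.59 points, where 5 fish allow no p under 0.0625. The in-frame difference lay between -0.88 and 9.001 points with 1 fish left out and was 27.3 at 100 reads, 37.9 at 0.1% of reads and 15.8 against single insertions. The cause was not tested, except that fewer fish remained at 0.1% of reads.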
